A study of Homo sapiens with 6 samples.

Results

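The genes described here encode the protein subunits of the mitochondrial ribosome and carry the symbols MRPL (large subunit) or MRPS (small subunit). They were chosen by name alone, as every symbol made of MRPL or MRPS, a number and at most 1 closing letter from A to C, which gave 77 of the 60675 gene identifiers in the files. Of these, 48 are MRPL genes and 29 are MRPS genes. The RNA came from OCI-AML2, an established human acute myeloid leukaemia line, and was recovered from lysates with J2, an antibody that binds double-stranded RNA. One group of 3 libraries is the PNPT1 knockdown and the other group of 3 is the SUPV3L1 knockdown (the gene also called SUV3), each made by transduction of a short hairpin RNA construct. Both groups share the parental line, the antibody and the library kit, and no library of cells without a knockdown or of RNA before precipitation was analysed here. Whether libraries within a group share 1 hairpin or 1 transduced culture is not known. The series text calls the replicates biological, and the p-values below measure only the spread between these libraries.

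The mitochondrial ribosome translates the few messenger RNAs that the mitochondrial genome encodes, all for subunits of the respiratory chain and ATP synthase. Its ribosomal RNAs are transcribed in the organelle, whereas its proteins are encoded in the nucleus, made on cytosolic ribosomes and imported. Some of these proteins descend from bacterial ribosomal proteins and others are found only in mitochondria. PNPT1 encodes polynucleotide phosphorylase and SUPV3L1 encodes an RNA helicase, and together they degrade RNA in the mitochondrial matrix.

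The libraries held 5852090 to 11361371 reads assigned to genes, and 8518 to 20939 of these fell on mitochondrial ribosomal protein genes. Replicate 3 of the PNPT1 knockdown stood apart: it had the fewest assigned reads, 80.1% of its alignment entries were not unique, and 37.7% of its counts lay in 42 genes named for 4 genomic clones, against 10.9% to 22.1% in the other 5 libraries. For most summed values, the pathway lists and several of the members that it moved most, values without that library are also given. In libraries of the PNPT1 knockdown, PNPT1 RNA had TMM-scaled CPM (counts in 1e6 assigned reads) of 7.64, 18.9 and 17.1, and in those of the SUPV3L1 knockdown 36.2, 27.5 and 21.4, without overlap. SUPV3L1 RNA had 11.5, 18.1 and 25.8 CPM against 12.1, 12.2 and 9.39 CPM, and these ranges overlapped. Each gave an adjusted p of 0.898 in the quasi-likelihood test of edgeR, with Benjamini-Hochberg adjustment over all genes tested, and so neither passed. Of 10 myeloid markers all 10 had counts, and their summed level was 278 to 395 FPKM (fragments scaled to gene length and library depth) in the PNPT1 knockdown and 489.7 to 827 FPKM in the SUPV3L1 knockdown. Of these markers LYZ, the lysozyme gene, had a mean of 48.3 FPKM against 450.5 FPKM and AZU1, a granule protein gene, 216 FPKM against 173 FPKM, so the sums differed through LYZ and not through every marker. The part of this difference in the results was not tested. The lymphoid, epithelial and fibroblast lists summed to at most 0.169, 0.0119 and 0.0826 FPKM, and the endothelial pair PECAM1 and VWF summed to 1.35 to 10.5 FPKM.

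Levels between genes were compared per length, on the deposited FPKM scale. The median member had a mean level of 5.36 FPKM over the 6 libraries, against 2.57 FPKM for the 13275 genes that passed the expression filter. The medians of the MRPL and MRPS genes were 5.01 and 5.55 FPKM. Members spanned from 0.578 FPKM for MRPS33, a small-subunit protein found only in mitochondria, to 24.8 FPKM for MRPS18B.

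MRPS18B is 1 of 3 human relatives of the bacterial protein S18 and sits in the small subunit. It lay at 28.2, 28.5 and 8.43 FPKM in the PNPT1 knockdown and at 32.3, 23.6 and 28.0 FPKM in the SUPV3L1 knockdown. PNPT1 knockdown replicate 3 was lowest and the other 5 libraries overlapped. The next in order was MRPL47, counterpart of bacterial L29 near the exit of the peptide tunnel, with 16.9, 20.5 and 11.2 FPKM against 26.0, 25.2 and 19.6 FPKM. Again the lowest value was in PNPT1 knockdown replicate 3, and the groups overlapped. MRPS34, a small-subunit protein without a bacterial counterpart, had 15.3, 22.5 and 16.9 FPKM against 19.9, 19.5 and 19.0 FPKM. MRPL18, a protein of the central protuberance of the large subunit, had 15.7, 12.9 and 30.7 FPKM against 14.9, 13.4 and 13.4 FPKM. Here replicate 3 of the PNPT1 knockdown was the highest library. Each of these 4 overlapped with its neighbours in the order.

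Other abundant large-subunit members were MRPL33 (mean 14.8 FPKM), MRPL12 (14.7 FPKM), which is the stalk protein that contacts translation factors, and MRPL39 (13.2 FPKM), which has no bacterial counterpart. Among the small-subunit members they were MRPS21 (16.4 FPKM), MRPS16 (12.9 FPKM) and MRPS10 (12.1 FPKM), all counterparts of bacterial proteins. The lowest large-subunit member was MRPL46, at 1.03 FPKM. MRPS21 has 7 named pseudogenes, MRPS17 has 4 and MRPS18B has 2, and reads that fit both a gene and such a copy make their values uncertain.

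**Figure D1:**
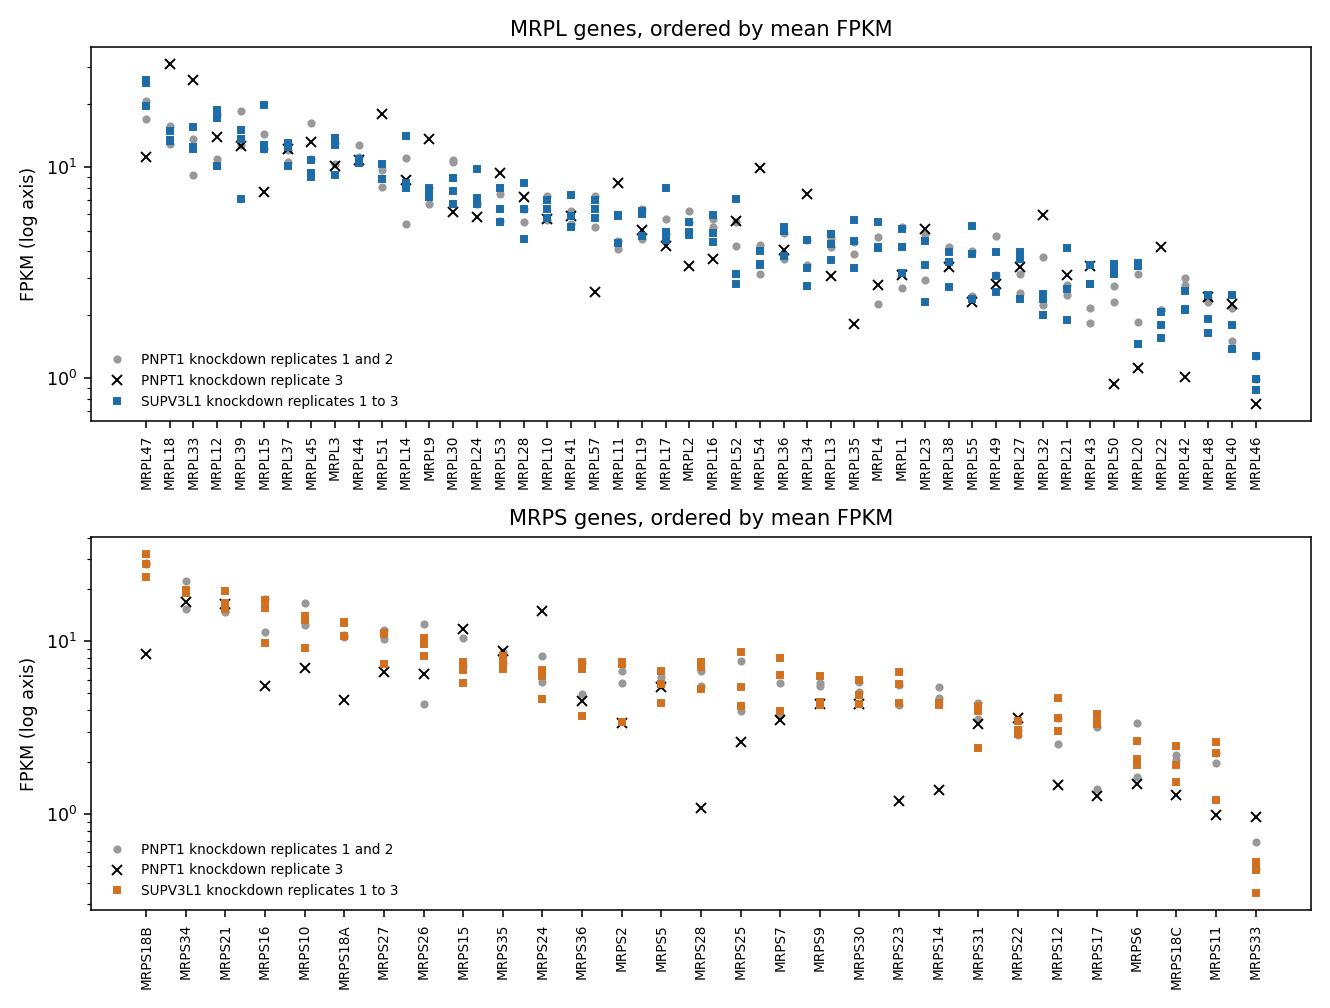
Deposited FPKM (log axis) of the 48 MRPL genes (upper panel) and 29 MRPS genes (lower panel), ordered by mean level, with 1 symbol per library. PNPT1 knockdown replicate 3 (crosses) lies above the other 5 libraries for MRPL18, MRPL33 and MRPL54 and below them for MRPS18B and MRPS23.

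The 4 most abundant members by FPKM are printed with their promoters, to show the promoter motifs that were counted over all members; no marked motif is present in all 4. Each sequence runs from 250 bases before to 50 bases after a RefSeq transcription start (GRCh38.p14), 5′ to 3′ on the strand of the gene, so its last 50 bases are transcribed. Capitals mark the ETS core CCGGAAG (on either strand, as its reverse complement from the other one), the binding motif of the ETS family that includes GABPA, and the YY1 core AANATGGC (likewise). MRPS18B (ENSG00000204568) lies on chromosome 6 from 30617709 to 30626395 on the plus strand, MRPL47 (ENSG00000136522) on chromosome 3 from 179588285 to 179604654 on the minus strand, MRPS34 (ENSG00000074071) on chromosome 16 from 1771890 to 1773155 on the minus strand, and MRPL18 (ENSG00000112110) on chromosome 6 from 159789812 to 159798436 on the plus strand (GENCODE 29, GRCh38). The promoters shown are chr6:30617590-30617889 (plus) for MRPS18B, chr3:179604589-179604888 (minus) for MRPL47, chr16:1773085-1773384 (minus) for MRPS34 and chr6:159790217-159790516 (plus) for MRPL18. Where a gene had several listed starts, a start with an ETS or NRF1 core was preferred. For MRPL18 this is the only 1 of 3 listed starts with an ETS core, and it lies inside the GENCODE gene. The ETS core shown for MRPL18 therefore follows from that choice.
MRPS18B: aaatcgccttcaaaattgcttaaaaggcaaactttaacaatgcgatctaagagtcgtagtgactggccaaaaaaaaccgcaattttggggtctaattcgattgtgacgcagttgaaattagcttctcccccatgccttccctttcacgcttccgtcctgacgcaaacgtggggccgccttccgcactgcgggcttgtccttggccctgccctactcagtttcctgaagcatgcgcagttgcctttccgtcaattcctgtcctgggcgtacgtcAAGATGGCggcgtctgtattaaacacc
MRPL47: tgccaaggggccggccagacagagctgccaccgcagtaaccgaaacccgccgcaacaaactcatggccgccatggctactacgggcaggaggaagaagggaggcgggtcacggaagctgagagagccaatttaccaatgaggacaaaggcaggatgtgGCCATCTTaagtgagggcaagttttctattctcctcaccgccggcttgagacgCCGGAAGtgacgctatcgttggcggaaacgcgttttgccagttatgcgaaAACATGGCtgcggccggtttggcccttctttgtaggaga
MRPS34: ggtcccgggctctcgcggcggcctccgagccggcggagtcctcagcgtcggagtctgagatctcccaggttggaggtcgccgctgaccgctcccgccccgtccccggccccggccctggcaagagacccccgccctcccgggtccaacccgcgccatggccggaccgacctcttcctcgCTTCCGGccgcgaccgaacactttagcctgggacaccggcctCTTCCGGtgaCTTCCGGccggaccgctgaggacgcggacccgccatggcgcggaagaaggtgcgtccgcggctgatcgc
MRPL18: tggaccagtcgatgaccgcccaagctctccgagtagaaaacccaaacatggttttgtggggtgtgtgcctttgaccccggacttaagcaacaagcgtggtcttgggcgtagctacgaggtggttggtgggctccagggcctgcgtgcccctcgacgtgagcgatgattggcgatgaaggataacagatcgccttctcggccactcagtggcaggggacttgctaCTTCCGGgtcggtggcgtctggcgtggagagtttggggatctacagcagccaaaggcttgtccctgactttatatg
MRPS34 held 3 ETS cores, at 71, 29 and 19 bases before the start, and MRPL47 and MRPL18 held 1 each, at 39 and 26 bases before it. MRPS18B held none, and its YY1 core began 24 bases after the start. MRPL47 held 2 YY1 cores, 92 bases before and 12 bases after the start.

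RefSeq promoters were found for 68 of the 77 members, with 84 starts among them. On either strand, 32 of the 84 (38.1%) held the ETS core, against 12.8% of 22198 promoters of protein-coding genes and 10.3% of 35116 promoters of all genes in the table. The share was 35.3% over 51 MRPL promoters and 42.4% over 33 MRPS promoters. The YY1 core, which was added after the data were seen and holds the letters ATG of a start codon, was in 28 of 84 (33.3%), against 7.37% and 6.58%. The palindromic core of NRF1, a factor that drives many nuclear genes for mitochondrial proteins, was in 1 promoter, that of MRPL17 (1.19%), against 1.5% and 1.24%. Both ETS and YY1 cores were present in 10 promoters, in none of which they overlapped, and 34 held neither. These are matches of letters and carry no measurement of binding, and several starts of 1 gene share sequence.

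Members often started close to the start of a gene on the opposite strand. The starts of 29 of the 77 (37.7%) lay within 1000 bases of such a start, against 2586 of 19951 protein-coding genes (13.0%). Both shares count genes that run apart and also genes whose first parts overlap, as for MRPL43 and TWNK. The feature was chosen after the data were seen. MRPL46 and MRPS11, one from each subunit, start 34 bases apart on chromosome 15. MRPL47 starts 36 bases from NDUFB5, and MRPL36 starts 34 bases from NDUFS6. Both partners encode complex I subunits. Among the partners, the helicase gene TWNK beside MRPL43 had 4.07, 21.2 and 4.59 CPM in PNPT1 knockdown libraries against 22, 45.3 and 19.5 CPM. Its log2 fold change was 1.51 ± 0.63 (SE) and that of MRPL43 was 0.01, and TWNK did not pass edgeR's test (adjusted p = 0.898). MRPL43 was highest in PNPT1 knockdown replicate 3 (24.5 CPM), and without that library its value was 0.66 ± 0.31. Of the exonic bases of MRPL43, 36.9% lie opposite exons of other genes, TWNK among them. PSMA2 beside MRPL32 moved with its member, at -1.75 ± 0.75 (SE) against -1.06. PSMA2 was highest in PNPT1 knockdown replicate 3 (36.7 CPM) and did not pass edgeR's test (adjusted p = 0.898). Partners moved with their members in some pairs and apart in others, and this was not tested.

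The RNA of all members together made up 0.161%, 0.165% and 0.146% of assigned counts in the PNPT1 knockdown and 0.184%, 0.165% and 0.143% in the SUPV3L1 knockdown. The group means were 0.157% ± 0.0103 and 0.164% ± 0.0208 (SD, n = 3 each), and the groups overlapped. Without PNPT1 knockdown replicate 3 the PNPT1 knockdown mean was 0.163%. For 1 library the 95% Wilson interval was narrow, from 0.142% to 0.149% in PNPT1 knockdown replicate 3, but it covers counting error only. Mitochondrially encoded genes took 11.3% to 26.6% of counts in the PNPT1 knockdown and 33.6% to 42% in the SUPV3L1 knockdown. With these genes taken out of the total, the members made up 0.206%, 0.225% and 0.164% against 0.281%, 0.249% and 0.246%, and the groups did not overlap. With the 42 clone-named genes also taken out, the shares were 0.258%, 0.321% and 0.285% against 0.337%, 0.319% and 0.303%, and they overlapped again. A difference in share therefore depended on what the total held. In these bulk precipitates, fewer cells with a transcript, less per cell and less recovered by the antibody cannot be told apart.

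The RNA of the 2 subunits stood in a steady proportion in 5 of the 6 libraries. Summed MRPS counts were 0.866 and 0.928 of summed MRPL counts in replicates 1 and 2 of the PNPT1 knockdown and 0.881, 0.905 and 0.877 in the SUPV3L1 knockdown. In PNPT1 knockdown replicate 3 the ratio was 0.588. The group means were 0.794 ± 0.181 and 0.888 ± 0.0149 (SD, n = 3 each), and without replicate 3 the PNPT1 knockdown mean was 0.897. Summed FPKM gave the same picture, with ratios of 0.690, 0.742 and 0.458 against 0.685, 0.704 and 0.725. By FPKM the PNPT1 knockdown mean without replicate 3 was 0.716, against 0.705 in the SUPV3L1 knockdown. Counting MRPS18A and MRPS30 with the large subunit, where both proteins are found in the assembled ribosome, and leaving out MRPS36 gave 0.709, 0.784 and 0.493 against 0.752, 0.769 and 0.693. By this grouping the PNPT1 knockdown mean without replicate 3 was 0.747, against 0.738 in the SUPV3L1 knockdown. A ratio taken inside a library does not depend on library size. An exact permutation test of 3 against 3 libraries cannot go below p = 0.10, so no test was run on these ratios.

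**Figure D2:**
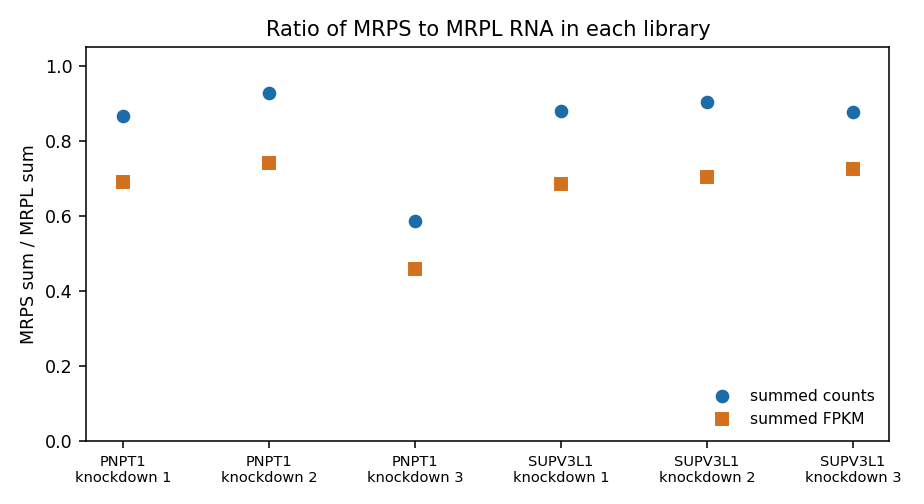
Summed MRPS over summed MRPL RNA in each of the 6 libraries, from counts (circles) and from deposited FPKM (squares). By counts, 5 libraries lie between 0.866 and 0.928 and PNPT1 knockdown replicate 3 lies at 0.588.

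Gene by gene, no mitochondrial ribosomal protein gene passed the threshold between the SUPV3L1 and PNPT1 knockdowns. By edgeR's quasi-likelihood test 0 of 76 tested members had a Benjamini-Hochberg adjusted p under 0.05, where 0.0% of 13275 genes did, and 0 members had an unadjusted p under 0.05, where 4.09% of genes did. DESeq2 also called 0 members, against 0.119% of the 16032 genes to which it gave an adjusted p. The libraries of the groups did not overlap in 3 members that were higher in the SUPV3L1 knockdown (MRPL50, MRPS17 and MRPS18A), where 4.62% of all genes were, and in 0 members that were lower, where 3.94% were. Fold changes are given as SUPV3L1 knockdown minus PNPT1 knockdown on the log2 scale. They were above 0 in 33 of 76 members (43.4%), against 50.7% of all genes, and the median was -0.06, against 0.01 over all genes. On the log2(FPKM + 0.1) scale, where the median of all genes was 0.11, 45 of 75 tested members were above 0, against 59.4% of all genes, and the medians were 0.08 for all members, 0.05 for MRPL and 0.13 for MRPS genes. The median standard error of a member was 0.386. The 95% confidence interval lay within a 2-fold change in both directions for 25 members and reached past 2-fold in both directions for 3, so for most members a 2-fold difference in 1 direction was not excluded by these libraries.

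Among the 48 MRPL genes, 18 had a fold change above 0 and the median was -0.12, which on the log2(FPKM + 0.1) scale was 0.05. With all 6 libraries the 29 large-subunit members with a bacterial counterpart had a median of -0.07. The 20 found only in mitochondria, MRPS30 included, had a median of -0.22 with the same libraries. PNPT1 knockdown replicate 3 was the highest library for 17 of the 29 and 15 of the 20, against 30.6% of all genes. Medians without that library were not taken for this split. The members with the lowest values were each highest in PNPT1 knockdown replicate 3. MRPL32, a subunit that is matured by the protease of the mitochondrial inner membrane before it enters the ribosome, had 14.4, 9.31 and 43.9 CPM in the PNPT1 knockdown and 11.7, 9.03 and 11.2 CPM in the SUPV3L1 knockdown. Its log2 fold change was -1.06 ± 0.53 (SE), with an unadjusted p of 0.0748, the smallest of all members, and an adjusted p of 0.898 by edgeR's test. Without replicate 3 of the PNPT1 knockdown it was -0.16 ± 0.34, with an unadjusted p of 0.648. Replicate 3 lay far above the SUPV3L1 libraries, replicate 1 just above them and replicate 2 within their range.

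MRPL22, which lines the peptide exit tunnel, had 12.8, 13.8 and 53.6 CPM against 12.9, 10.6 and 15.7 CPM, with a log2 fold change of -1.01 ± 0.54 (SE). MRPL54, a mitochondria-specific subunit, had 4.86, 4.00 and 21.9 CPM against 5.16, 4.70 and 5.07 CPM (-1.0 ± 0.64). MRPL18 had 24.0, 21.2 and 95.7 CPM against 26.9, 23.1 and 24.5 CPM (-0.90 ± 0.53). In all 3 the groups overlapped, and the 5 libraries other than PNPT1 knockdown replicate 3 were close to each other. MRPL9, with 12.6, 12.4 and 47.7 CPM against 14.5, 14.9 and 14.0 CPM, also had replicate 3 highest, while replicates 1 and 2 lay below the SUPV3L1 libraries (-0.72 ± 0.52).

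The highest large-subunit values were smaller. MRPL50, a mitochondria-specific subunit, had 8.33, 10.5 and 6.63 CPM in the PNPT1 knockdown and 13.8, 12.6 and 14.2 CPM in the SUPV3L1 knockdown. All 3 SUPV3L1 libraries were above all 3 PNPT1 libraries, with a log2 fold change of 0.66 ± 0.36 (SE) and an adjusted p of 0.898 by edgeR's test. MRPL12 had a log2 fold change of 0.42 ± 0.66, MRPL4 of 0.41 ± 0.38, MRPL20 of 0.41 ± 0.47, MRPL35 of 0.39 ± 0.33 and MRPL57 of 0.34 ± 0.34, and their groups overlapped. The fold change of MRPL47, the most abundant large-subunit member, was 0.28 ± 0.31, and that of MRPL39 was -0.57 ± 0.40.

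Among the 28 tested MRPS genes, 15 had a fold change above 0 and the median was 0.08. Small-subunit members with a bacterial counterpart had a median of 0.09 over 14 genes with all 6 libraries. Those found only in mitochondria had a median of -0.04 over 10. PNPT1 knockdown replicate 3 was the highest library for 5 of the 14 and 5 of the 10, against 30.6% of all genes. MRPS15, counterpart of a bacterial protein that binds the small ribosomal RNA, had 34.3, 25.8 and 69.9 CPM against 28.9, 23.1 and 27.7 CPM. Its log2 fold change was -0.70 ± 0.39 (SE), and -0.19 ± 0.27 without PNPT1 knockdown replicate 3, again the highest library. MRPS23, a mitochondria-specific protein, ran the other way, with 30.1, 42 and 16.3 CPM against 53.0, 34.9 and 47.0 CPM (0.60 ± 0.38). Replicate 3 was lowest there, the groups overlapped, and without it the value was 0.31 ± 0.29. MRPS17, the counterpart of bacterial S17, had 6, 25 and 1 counts against 28, 28 and 22 counts. These few counts gave the highest log2 fold change of all members, 1.1 ± 0.72, with an unadjusted p of 0.143 by edgeR's test.

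MRPS12, which lies at the decoding centre, had 5.85, 8.79 and 6.12 CPM against 9.67, 12.1 and 8.64 CPM, and 1 PNPT1 library overlapped with 1 SUPV3L1 library (0.54 ± 0.40). MRPS25 (0.44 ± 0.40), MRPS16 (0.32 ± 0.36), MRPS22 (-0.29 ± 0.40), MRPS35 (-0.32 ± 0.37), MRPS5 (-0.24 ± 0.33) and MRPS31 (-0.25 ± 0.39) all overlapped. The abundant small-subunit members that follow were close to 0: MRPS34 (-0.06 ± 0.34), MRPS21 (-0.04 ± 0.35) and MRPS10 (-0.07 ± 0.31). MRPS27, the member with the most counts, had 82.1, 79.7 and 89.8 CPM against 92.2, 92.1 and 66.1 CPM (-0.01 ± 0.29).

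The 3 relatives of bacterial S18 occupy different places. MRPS18C takes the position of the bacterial protein, MRPS18B is an added small-subunit protein and MRPS18A lies in the large subunit. MRPS18A had 16.9, 16.5 and 10.7 CPM in the PNPT1 knockdown and 21.3, 18.1 and 23.1 CPM in the SUPV3L1 knockdown, without overlap (log2 fold change 0.49 ± 0.33, SE). Of its exonic bases 47.0% lie opposite exons of RSPH9. The kit was directional but the strand setting of the counting is not given, so whether reads of the 2 genes were kept apart is not known. MRPS18B had 54.8, 60.3 and 30.1 CPM against 74.0, 54.4 and 68.8 CPM (0.44 ± 0.34). Without PNPT1 knockdown replicate 3 the fold changes of MRPS18A and MRPS18B were 0.31 ± 0.27 and 0.18 ± 0.25. MRPS18C had 14.3, 14.7 and 16.3 CPM against 15.9, 12.3 and 12.5 CPM (-0.15 ± 0.33), and 40.2% of its exonic bases lie opposite exons of ABRAXAS1, with the same limit. PNPT1 knockdown replicate 3 was lowest for MRPS18A and MRPS18B and highest for MRPS18C. MRPS30, a large-subunit protein despite its name, was at -0.21 ± 0.32, and MRPS36, now known as a component of the oxoglutarate dehydrogenase complex and not of the ribosome, was at 0.07 ± 0.39.

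Replicate 3 of the PNPT1 knockdown stood out across the members. On the TMM-scaled CPM scale it was the highest library for 42 of 76 members (55.3%), against 30.6% of all genes, and for 31 of 48 MRPL genes (64.6%) against 11 of 28 MRPS genes (39.3%). It was more than 2-fold above the next library for 11 tested members (14.5%), 9 of them MRPL genes, against 7.19% of all genes. By subunit this was 18.8% of MRPL genes and 7.14% of MRPS genes, the latter near the share of all genes. It was the lowest library for 11 others (14.5%), against 36.4% of all genes. Without TMM scaling the order turned, and the library was more often the lowest than the highest. By CPM without TMM it was highest for 13 members (17.1%), against 11.1% of all genes, and lowest for 29 (38.2%), against 59.1%. By FPKM it was highest for 15 (19.7%), against 9.24%, and lowest for 32 (42.1%), against 62.2%. It was lowest for 57.1% of MRPS and 27.1% of MRPL genes by CPM without TMM, and for 60.7% and 31.2% by FPKM. It was highest for 18.8% of MRPL and 14.3% of MRPS genes by CPM without TMM, and for 22.9% and 14.3% by FPKM. Across the 76 members, Pearson correlations of log2 CPM were 0.746 to 0.829 between this library and the others and 0.891 to 0.971 among the other 5. These are over genes, which are not independent replicates. The part that the low depth, the non-unique alignments and the clone-named counts of this library had in its values was not tested.

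Without that library the direction of the MRPL genes turned. The number of members with a fold change above 0 went from 33 to 54 of 76, made up of 34 MRPL and 20 MRPS genes, against 50.9% of all genes. The medians were 0.17 for all members, 0.20 for MRPL genes and 0.12 for MRPS genes, and 0.01 over all genes. Of the 76 members, 25 went from below to above 0 and 4 the other way. MRPL18 moved from -0.90 to 0.13, MRPL54 from -1.0 to 0.16 and MRPL22 from -1.01 to -0.04. MRPL50 stayed at 0.51 ± 0.30 (SE) and MRPS17 at 0.79 ± 0.63. Above 0.5 there were 4 members with all 6 libraries and 6 without replicate 3. The 6 included MRPL12 (0.67 ± 0.66), MRPL43 (0.66 ± 0.31), MRPL4 (0.57 ± 0.37) and MRPS7 (0.54 ± 0.36). Below -0.5 there were 14 with all libraries and 1 without replicate 3, MRPL38 (-0.65 ± 0.59). No member passed edgeR's test with or without the library, and 0 had an unadjusted p under 0.05 without it.

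**Figure D3:**
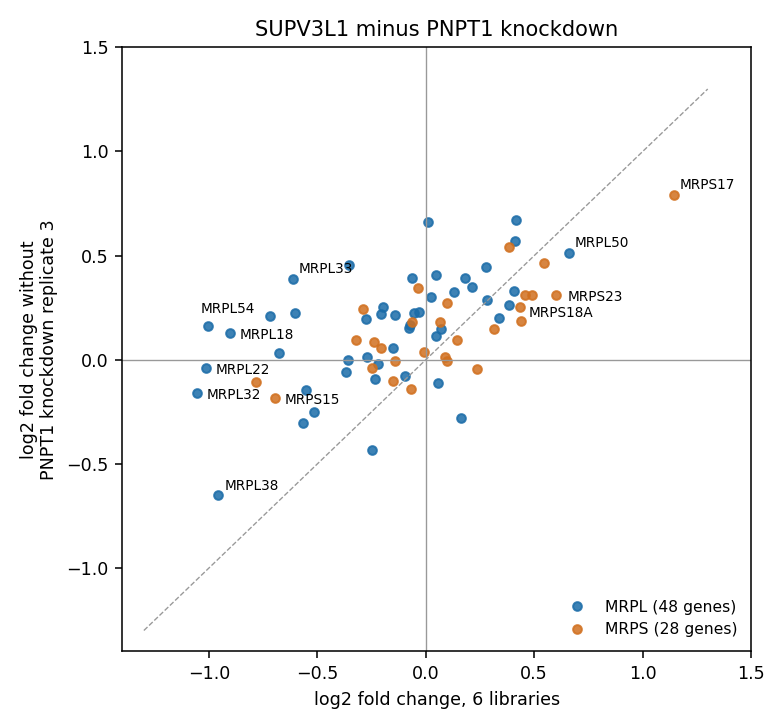
Log2 fold change (SUPV3L1 minus PNPT1 knockdown) of the 76 tested members with all 6 libraries (horizontal) and without PNPT1 knockdown replicate 3 (vertical); the dashed line marks equal values. Of the members near -1 on the horizontal axis, MRPL22 (-1.01) and MRPL54 (-1.0) lie near 0 on the vertical axis. MRPL38 (-0.96), a member with few counts, lies at -0.65 there, and MRPL50 stays at 0.51.

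MRPS24, the counterpart of bacterial S3, was the 1 member left out by the expression filter, and its counts and FPKM did not go together. It had 1, 2 and 29 counts in the PNPT1 knockdown and 2, 4 and 0 counts in the SUPV3L1 knockdown, where a count of 0 allows up to 3 counts. Its deposited levels were 8.26, 5.78 and 14.9 FPKM against 6.28, 4.61 and 6.87 FPKM, and its mean of 7.78 FPKM was above that of the median member, although SUPV3L1 knockdown replicate 2 was below it. The gene shares 23.2% of its exonic bases on the same strand with the read-through transcript URGCP-MRPS24. DESeq2, which tested it, gave an unadjusted p of 0.00669 that did not pass adjustment.

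Counts and FPKM were compared over all members. Deposited FPKM were divided by CPM per kilobase of exon (without TMM), and the median ratio was 0.731 (range 0.641 to 1.19) over the 61 members that share no exonic base on the same strand. It was 0.869 (0.720 to 1.81) over 9 members that share under 20% and 7.22 (0.681 to 20.9) over 7 members that share 20% or more, a limit set after the values were seen. MRPL12, which shares 68.2% of its exonic bases, had 6, 24 and 9 counts against 25, 31 and 14 counts, but 10.9, 17.8 and 13.8 FPKM against 17.1, 18.6 and 10.1 FPKM. MRPL38, MRPL53, MRPS17, MRPS24 and MRPS28 were also above 3-fold, and MRPL33, which shares 21.1%, was at 0.681. Count-based values of these genes, MRPS17 among them, are uncertain for that reason, and whether the counting set shared reads aside was not tested.

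**Figure D4:**
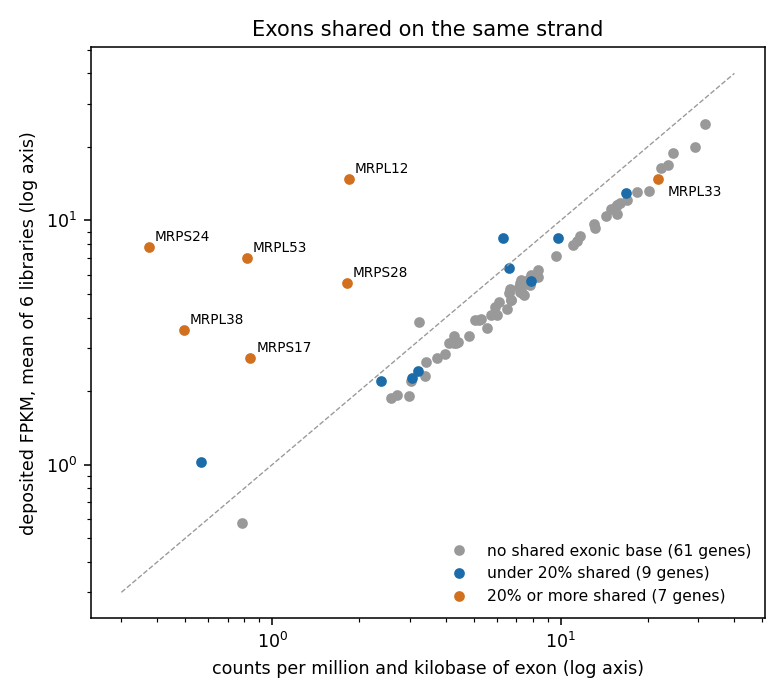
Mean deposited FPKM against CPM per kilobase of exon (without TMM) for the 77 members (both axes log), coloured by the share of exonic bases that lie in another gene on the same strand; the dashed line marks equal values. Of the 7 members that share 20% or more, 6 lie above the line, and MRPL33 lies with the members that share none.

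The ribosomal RNAs that these proteins bind were recovered in far larger amounts than the members' own RNA. The mitochondrial rRNAs took 15.7%, 20.5% and 9.44% of counts in the PNPT1 knockdown and 29.1%, 28.5% and 32.5% in the SUPV3L1 knockdown. Per count of a mitochondrial ribosomal protein gene this was 97.2, 124 and 64.9 rRNA counts against 158, 173 and 227. The means were 95.4 ± 29.6 and 186 ± 36.7 (SD, n = 3 each), and the groups did not overlap. The difference of means was 90.7, and 75.4 without PNPT1 knockdown replicate 3. Both kinds of RNA were recovered with an antibody to double-stranded RNA, and the ratio in total RNA was not measured.

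Other genes of mitochondrial translation were read from lists fixed for these data. Of 8 genes listed as mitoribosome proteins with other names, 0 passed edgeR's test and the median was -0.06. The list includes OXA1L and LACTB, which are not subunits of the ribosome. A fold change above 0 was seen in 3 (37.5%), against 50.7% of all genes. GADD45GIP1 (-0.31 ± 0.49, SE), a large-subunit protein, and OXA1L (-0.17 ± 0.32), which inserts nascent chains into the inner membrane, overlapped between groups. LACTB, a mitochondrial protease-like protein listed for an older alias, had 14.4, 8.01 and 28.6 CPM against 8.52, 4.33 and 10.0 CPM (-1.14 ± 0.52), with PNPT1 knockdown replicate 3 highest. Without that library 6 of the 8 genes were above 0 and the median was 0.21, with LACTB at -0.56 ± 0.46, GADD45GIP1 at 0.35 ± 0.38 and OXA1L at 0.07 ± 0.26.

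Of 27 mitoribosome assembly factors, 0 passed and the median was 0.20. A fold change above 0 was seen in 19 (70.4%), against 50.7% of all genes. METTL17, a small-subunit assembly factor, had 52.0, 31.6 and 96.2 CPM in the PNPT1 knockdown and 32.0, 31.3 and 26.7 CPM in the SUPV3L1 knockdown, and replicate 2 of the PNPT1 knockdown lay within the SUPV3L1 range. Its log2 fold change was -0.99 ± 0.40 (SE), with an unadjusted p of 0.0329 and an adjusted p of 0.898 by edgeR's test. No other gene of the list had an unadjusted p under 0.05, where 4.09% of all genes did. MPV17L2, an inner membrane protein required for ribosome assembly, had 2.88, 5.92 and 6.63 CPM against 8.85, 6.96 and 9.5 CPM, without overlap (0.73 ± 0.47). In this list 2 genes were higher without overlap (MPV17L2 and NSUN4), where 4.62% of all genes were. In the other direction 1 gene was lower (TFB1M), where 3.94% of all genes were. The GTPase MTG2, which acts on the large subunit, was at 0.79 ± 0.54. Without PNPT1 knockdown replicate 3, 15 of the 27 were above 0 and the median was 0.02, with METTL17 at -0.49 ± 0.29, MPV17L2 at 0.93 ± 0.44 and MTG2 at 0.44 ± 0.47.

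Of 15 mitochondrial translation factors, 0 passed and the median was 0.07. A fold change above 0 was seen in 8 (53.3%), against 50.7% of all genes. LRPPRC, which binds and stabilizes mitochondrial messenger RNAs, had 133, 122 and 189.8 CPM against 118, 102 and 109.9 CPM (-0.43 ± 0.31, SE). It was lower in all 3 SUPV3L1 libraries, as were 3.94% of all genes, with an adjusted p of 0.898 by edgeR's test. TACO1, the translational activator of COX1, was at 0.81 ± 0.69, and the rescue factor C12orf65 at 0.46 ± 0.56, with 2 and 10 counts in PNPT1 knockdown replicate 3. Without that library 11 of the 15 were above 0 and the median was 0.06, with LRPPRC at -0.22 ± 0.23, TACO1 at 0.33 ± 0.42 and C12orf65 at 0.01 ± 0.30.

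The cytosolic ribosome was set beside its mitochondrial relative. Of 83 tested cytosolic ribosomal protein genes, 0 passed edgeR's test, 1 had a fold change above 0 and the median was -0.89. Over all genes 50.7% were above 0 and the median was 0.01. PNPT1 knockdown replicate 3 was the highest library for 81 of these 83 genes, against 30.6% of all genes. Of 36 tested complex I subunit genes encoded in the nucleus, 0 passed, 8 were above 0 and the median was -0.28, and that library was highest for 29. Without that library the median of the 83 cytosolic genes was -0.10, with 19 above 0, and that of 37 complex I genes was 0.06, with 24 above 0, beside 0.20 for MRPL and 0.12 for MRPS genes. No gene of these lists passed edgeR's test without it. The differences between these lists were not tested.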

How the data were processed

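Per the labels' protocols, RNA was immunoprecipitated with the J2 antibody and libraries were made with a directional kit. Per the submitters' processing notes, HISAT2 2.2.1, SAMtools 1.14, StringTie 2.1.4 and HTSeq were used with GRCh38; HTSeq's version and strand setting and the gene annotation were not given in the sources used here. The authors deposited whole-number read counts per gene for each library and a table of FPKM values, scaled to length and depth, without stating which tool made each. The 5 summary lines of each count table were left out of library sizes and tests. Reads assigned to a gene were 7.06% to 16.0% of all entries.

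The quasi-likelihood test of edgeR 4.0.16 (R 4.3.3) was run on the counts of every gene that passed its expression filter (minimum count 10, total 15), with TMM scaling and Benjamini-Hochberg adjustment at 0.05. Members were read from that fit. Its code was also run on simulated counts drawn without an outlying library, with the outcome not reported here. A list was described by its counts and median, with no test of the list. DESeq2 1.42.0, limma 3.58.1 on log2 FPKM, other filters and leaving out each library were alternatives. CPM use TMM-scaled library sizes. Positions and shared exons come from GENCODE 29, which held all 77 members, and promoters from RefSeq.

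Genes named in the text were those with the 5 highest FPKM, and the 5 highest and 5 lowest fold changes at a mean of 50 counts or more, in each subunit; members left out by the filter or with special places; and the 3 smallest p in each pathway list. MRPL17, MRPL36, MRPL38, MRPL43, MRPL46, MRPL53, MRPS7, MRPS11, MRPS17, MRPS27, MRPS28, MRPS33, NSUN4, TFB1M and the neighbouring genes were added after their values were seen. The members and lists were chosen with earlier results of these data known. Replicates were numbered in accession order.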

Additional observations from a re-analysis of the deposited data

How the results depend on the processing

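No mitochondrial ribosomal protein gene passed the threshold under any of the 14 alternatives tried (0 in each), 1 of which, leaving out 42 clone-named genes, was chosen after seeing the data. The smallest adjusted p of a member was 0.0597, for MRPS24 in the edgeR test without the expression filter. Leaving out each library in turn gave 24 to 54 members above 0, an MRPL median of -0.287 to 0.198 and an MRPS median of -0.0823 to 0.123. The values of 54 and 0.20 came without PNPT1 knockdown replicate 3 and that of -0.08 without SUPV3L1 knockdown replicate 1. The difference in the members' share of counts, 0.00672 percentage points, ran from -0.00343 (without SUPV3L1 knockdown replicate 1) to 0.0174 (without SUPV3L1 knockdown replicate 3). It was 0.0603 without mitochondrially encoded genes in the total and 0.0313 without clone-named genes as well (also chosen after seeing the data), and the cause was not tested. Over 40 single genes and 557 values, 27 changed sign and 0 passed. On log2 FPKM plus 0.1 and plus 1, MRPS10 was at 0.0766 and 0.0664, MRPS18C at 0.0978 and 0.0643, MRPS21 at 0.148 and 0.140, and MRPS34 at 0.114 and 0.108. With 1 library left out, log2 fold changes ran from -1.26 to 0.13 for MRPL18, -0.98 to 0.39 for MRPL33, -1.4 to 0.16 for MRPL54, -1.05 to 0.21 for MRPL9, -0.0178 to 0.69 for MRPL12, -0.18 to 0.0880 for MRPS10, -0.23 to 0.34 for MRPS21, -0.52 to 0.25 for MRPS22, -0.36 to 0.0553 for MRPS30, -0.30 to 0.18 for MRPS34, -0.52 to 0.10 for MRPS35, -0.12 to 0.30 for MRPS36, -0.40 to 0.0834 for MRPS5, -0.66 to 0.35 for GADD45GIP1 and -0.35 to 0.0701 for OXA1L. The values of the related lists without PNPT1 knockdown replicate 3 were added after seeing the data. No paired analysis was possible because the replicate numbers are accession order and pair no libraries. With 3 libraries a group and a median standard error of 0.386, the 95% interval reached past 2-fold in at least 1 direction for most members.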
